A study of Mus musculus with 6 samples.

Results

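Glucose uptake, glycolysis, lactate formation and the response to low oxygen were followed through 9 genes, taken by symbol from the 39179 genes of the count table: the glucose transporter genes Slc2a1 and Slc2a2, the hexokinase genes Hk1 and Hk2, Pfkfb3, the pyruvate kinase genes Pkm and Pklr, Ldha and Pdk1. Each symbol matched 1 gene identifier. RNA sequencing had been done on osteosarcomas of mice. Of the libraries, 3 were of wild type for Cd44 (No244, No316 and No368) and 3 without functional Cd44 (No203, No279 and No364). All mice were Nf2Δ2/+, so the full genotypes were Cd44+/+ with Nf2Δ2/+ and Cd44-/- with Nf2Δ2/+, on a mixed C57BL/6 x 129/Sv x FVB background. Every tumor, the controls included, therefore came from an animal with a mutant Nf2 allele, and the Cd44 deletion was present in all cells of the host and not in the tumor alone. The age of the mice is not in the labels. The labels call the samples osteosarcoma, while their extraction text speaks of cell lines. Where 3 values are given for a genotype, they follow the order No244, No316, No368 for Cd44+/+ and No203, No279, No364 for Cd44-/-. The comparison asks whether tumors with and without Cd44, a cell surface receptor for hyaluronan, differ in the RNA of genes for glucose metabolism.

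Glycolysis turns glucose into pyruvate in the cytosol. Glucose enters through transporters of the SLC2A (GLUT) family, hexokinases trap it as glucose 6-phosphate, and phosphofructokinase, which is stimulated by the fructose 2,6-bisphosphate that PFKFB enzymes make, commits it to breakdown. Pyruvate kinase makes pyruvate, and lactate dehydrogenase reduces pyruvate to lactate. Pyruvate dehydrogenase kinases switch off pyruvate dehydrogenase, which uses pyruvate inside the mitochondrion. When oxygen is low, HIF-1 binds hypoxia response elements and raises the transcription of many of these genes. Tumors, osteosarcoma among them, often use glycolysis even when oxygen is present.

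The libraries held between 18076388 and 26954142 counts, and 3 counts, taken as the smallest detectable level, were worth 0.0990 to 0.252 CPM, the counts scaled to a common library size after correction for library composition (TMM). This limit covers counting error only. No316 and No368 were close to proportional: 87.2% of 16671 genes differed by no more than sampling noise, against 15.7% to 24.1% in the other 14 pairs of libraries, so their mean was counted as 1 sample in means and SDs. Of the 9 genes, Slc2a1 differed between them beyond this noise. The titles tell No316 and No368 apart by number alone, and whether they came from 1 specimen was not tested. The fold changes, SEs and p-values below count No316 and No368 as separate libraries unless they are said to be summed. Cd44 itself was at 137.3, 243.6 and 240.3 CPM in Cd44+/+ and 19.2, 15.7 and 61.8 CPM in Cd44-/-, with no overlap and with residual reads in each Cd44-/- tumor. Its log2 fold change was -2.68 ± 0.65 (SE), with an adjusted p of 0.452 in edgeR and 0.0145 in DESeq2. The mitochondrial genome gave 55.2% of the counts of No244 and 5.94% to 12.5% of those of the other tumors. Xist read 0.726 CPM for No279, 0.994 CPM for No364 and between 858.9 and 1241 CPM in the other 4 tumors, while the Y-linked Ddx3y was at 18.9 and 22.5 CPM in these 2 and at no more than 0.042 CPM elsewhere. All Cd44+/+ tumors were thus on the side of high Xist, and the part of sex in any difference between the genotypes was not tested.

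The tumors also differed in RNA of other tissues. The summed level of 10 hepatocyte markers was 141945 CPM in No364 and 81.1 to 192.2 CPM in the other 5 tumors, and 9 of the 9 tested were highest in No364. Skeletal muscle markers summed to 20078 CPM in No244, 728.4 CPM in No203 and 15.1 to 198.1 CPM elsewhere, and 8 of 8 were highest in No244. Erythroid markers summed to 5370.0 CPM in No244, 1944 CPM in No364 and 75.4 to 389.6 CPM in the others. Of the 8 osteoblast markers, which check the labelled tumor type, Bglap (osteocalcin) was at 4.79 CPM for No279 and 6.80 CPM for No364 but at 269.2 to 3481 CPM in the other 4 tumors. Ibsp (bone sialoprotein) was at 3.27 and 2.25 CPM for these 2 and at 640.1 to 4820 CPM in the rest, and Sp7 (the osteoblast factor osterix) at 3.96 and 0.31 against 192.0 to 333.2 CPM. Bglap, Ibsp and Sp7 were thus low or nearly absent in No279 and No364. Of the 8 osteoblast markers, 4 were lowest in No279 and 4 in No364. The summed list, in which Col1a1 is included, was at 13522 CPM in No279, 3033 CPM in No364 and 17126 to 39047 CPM elsewhere. Epithelial markers summed to 1969 CPM in No364, 36.3 CPM in No279 and 2.61 to 5.35 CPM in the other 4. Macrophage markers lay between 340.7 and 843.7 CPM and endothelial markers between 63.0 and 299.3 CPM. In bulk tissue, fewer cells of a type and less RNA per cell cannot be told apart. Results that rest on No364 are also given without it, and the part of other tissues in the differences below was not tested.

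**Figure D1:**
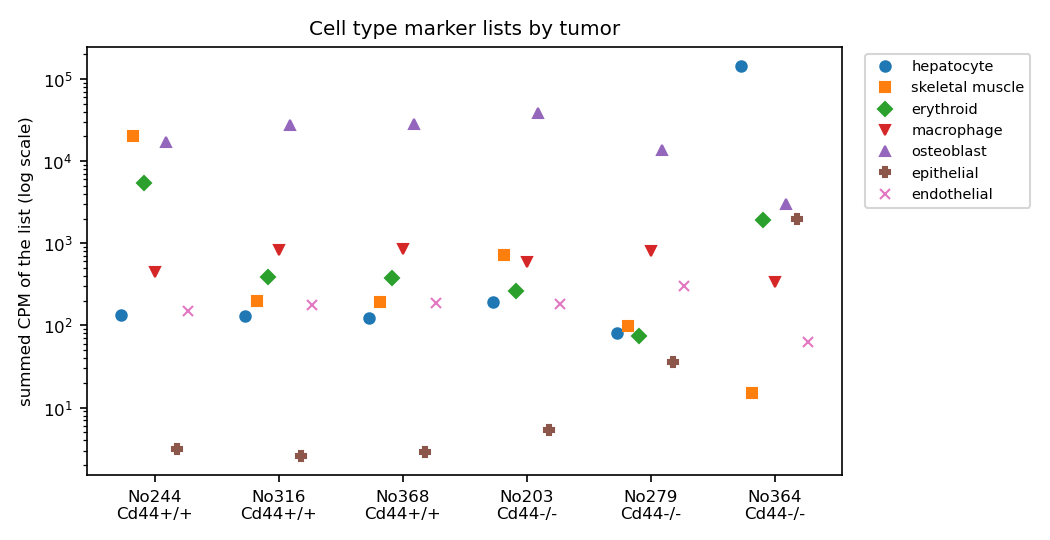
Summed CPM of each marker list (log axis) in each tumor, by Cd44 genotype. Hepatocyte markers reach 141945 CPM in No364 and stay at or below 192.2 CPM in the other 5 tumors, and skeletal muscle markers reach 20078 CPM in No244.

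Promoters are shown for 4 genes as examples with the core letters of the hypoxia response element, to which HIF is known to bind, and for Pklr, whose liver type promoter has a known carbohydrate response element. The sequences are from RefSeq (GRCm38.p6) and show the 250 bases before a transcription start, 5′ to 3′ on the strand of the gene. Capitals mark ACGTG or GCGTG, the core of the hypoxia response element, on either strand (CACGT and CACGC read it backwards, and CACGTG holds it in both directions), in Pfkfb3 also CCTGCG on either strand, and in Pklr the palindromic carbohydrate response element. The regions are chr7:46845554-46845803 (+) for Ldha, chr4:119108495-119108744 (+) for Slc2a1, chr2:71872974-71873223 (+) for Pdk1, chr2:11502091-11502340 (-) for Pfkfb3 and chr3:89136373-89136622 (+) for Pklr.
Ldha: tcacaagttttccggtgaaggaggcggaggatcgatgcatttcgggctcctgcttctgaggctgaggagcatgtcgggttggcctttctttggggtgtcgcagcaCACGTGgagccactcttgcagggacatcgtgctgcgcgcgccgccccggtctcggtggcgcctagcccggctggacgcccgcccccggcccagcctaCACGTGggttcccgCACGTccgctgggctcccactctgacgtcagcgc
Slc2a1: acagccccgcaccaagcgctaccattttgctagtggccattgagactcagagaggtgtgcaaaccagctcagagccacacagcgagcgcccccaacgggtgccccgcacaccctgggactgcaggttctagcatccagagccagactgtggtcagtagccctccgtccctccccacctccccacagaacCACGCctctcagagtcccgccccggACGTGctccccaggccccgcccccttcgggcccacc
Pdk1: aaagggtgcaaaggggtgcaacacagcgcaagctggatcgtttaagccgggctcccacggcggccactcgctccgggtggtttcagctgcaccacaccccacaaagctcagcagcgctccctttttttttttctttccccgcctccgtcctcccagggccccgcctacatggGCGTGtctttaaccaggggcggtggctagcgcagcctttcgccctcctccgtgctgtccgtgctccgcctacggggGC
Pfkfb3: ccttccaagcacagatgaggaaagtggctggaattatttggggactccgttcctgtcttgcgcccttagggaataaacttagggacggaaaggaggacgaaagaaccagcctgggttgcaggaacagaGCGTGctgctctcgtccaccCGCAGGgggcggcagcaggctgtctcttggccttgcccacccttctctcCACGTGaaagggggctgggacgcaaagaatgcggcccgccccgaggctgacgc
Pklr: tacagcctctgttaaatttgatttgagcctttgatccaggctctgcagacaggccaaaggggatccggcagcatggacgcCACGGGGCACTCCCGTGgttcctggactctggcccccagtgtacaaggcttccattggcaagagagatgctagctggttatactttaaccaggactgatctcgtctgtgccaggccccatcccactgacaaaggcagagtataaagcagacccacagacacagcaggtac

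Over windows from 250 bases before to 50 bases after each start, of which RefSeq gave 15 for the 9 genes and 32851 in all, ACGTG or GCGTG on either strand stood in 9 of 15 and in 43.8% of all windows. ACGTG alone was in 7 of the 15 and in 19.6% of all, and GCGTG in 6 and in 32.4%. The Ldha window held 7 matches, the most of the 15, with palindromic CACGTG starting 145 and 48 bases before the start. Each palindrome was counted once on each strand. The window of Slc2a1 held ACGTG 36 bases and GCGTG 61 bases before the start, and that of Pdk1 held GCGTG 78 bases before it and once across the start itself, where the sequence shown ends. Neither Slc2a2 nor Pklr had a match in any window. CCTGCG, the element through which the freed intracellular domain of CD44 is reported to act on transcription, was in both windows of Pfkfb3 and in 17.3% of all windows, and the AP-1 site TGACTCA, on either strand, in none of the 15 and in 5.2% of all. The carbohydrate response element of Pklr, CACGGGNNNNNCCCGTG, starts 170 bases before the start of the liver type transcript. That motif was added after the promoter had been seen and has the same letters, so its match in Pklr was fixed in advance. It allows no other letter in its arms. That no other of the 32851 windows matched therefore does not show how rare such elements are. A match is a description of letters and not of binding.

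None of the genes that could be tested passed the edgeR quasi-likelihood test between genotypes. Of 16839 genes tested, 0 (0.0%) passed an adjusted p of 0.05, 1810 (10.7%) had an unadjusted p under 0.05, and DESeq2 called 419 of 23842 (1.76%). Of the 9 genes 7 passed the filter on low counts, and 0 of these 7 had an unadjusted p under 0.05 or a call by DESeq2. Slc2a2 and Pklr did not pass, since No364 was the sole tumor with many reads. The log2 fold change, Cd44-/- over Cd44+/+, was above 0 for Slc2a1, Pkm, Ldha and Pdk1 and below 0 for Hk1, Hk2 and Pfkfb3. Its median was 0.15 against 0.11 over all genes tested. Over these 7 genes its SE was 0.50 to 0.89, and 0.65 to 1.10 with No316 and No368 summed as 1 sample. Single tumors stood out instead: 4 of the 7 (Slc2a1, Hk1, Pkm and Pdk1) were highest in No279, where 21.5% of all genes tested had their highest level, and Slc2a2, Pklr and Ldha were highest in No364.

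**Figure D2:**
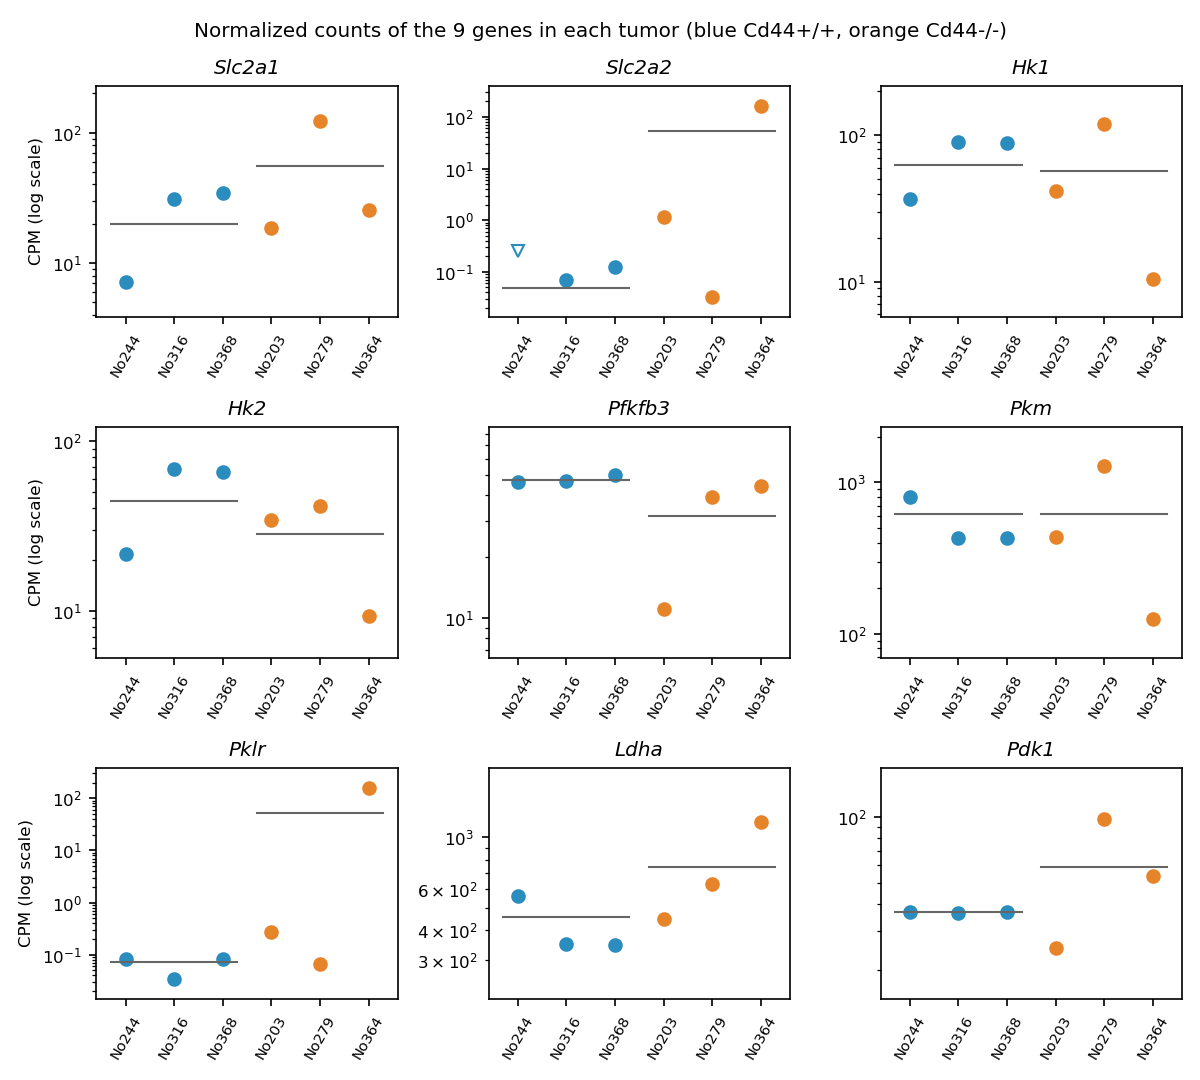
Level of each of the 9 genes in CPM (log axis) in each tumor, with grey lines at the group means (No316 and No368 averaged as 1 sample) and an open triangle where a library had 0 counts, drawn at its level for 3 counts. Slc2a2 and Pklr stand at 162.3 and 156.4 CPM in No364 against at most 1.15 CPM in any other tumor.

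Slc2a1 encodes GLUT1, the transporter that supplies basal glucose to most cells and a known HIF-1 target. Its level was 7.14 CPM in No244, 30.8 in No316 and 34.4 in No368, against 18.6 CPM for No203, 123.2 CPM for No279 and 25.3 CPM for No364. No279 was 3.58 times the next tumor, and the remaining 2 Cd44-/- tumors lay inside the Cd44+/+ range. The means were 19.9 ± 18.0 CPM (SD, n = 2) in Cd44+/+ and 55.7 ± 58.6 CPM (SD, n = 3) in Cd44-/-, with a log2 fold change of 1.21 ± 0.89 (SE) and an adjusted p of 0.615. Without No279 the log2 fold change was -0.14, so its sign rested on that tumor. Among the tested genes of the pathway and marker lists, and not over all genes, those whose level followed Slc2a1 most closely in the 6 tumors were Hif1a, which encodes the oxygen regulated subunit of HIF-1 (Pearson r = 0.974), and Ero1l, an oxidase of disulfide formation in the endoplasmic reticulum (r = 0.968). These and the later r values were sought in the same lists and are over log2(CPM + 0.1) of only 6 libraries, of which No316 and No368 nearly repeat each other, and they describe the libraries without a test. Slc2a1 lies on GRCm38 at chr4:119108711-119137983, and exons of an antisense gene, Gm12868, overlap its own. Whether the counting used strand is not stated, and the same limit holds for Hk1 and its antisense partner Hk1os and for Pklr and the opposite gene Hcn3.

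Slc2a2 encodes GLUT2, the low affinity transporter of hepatocytes, pancreatic beta cells and absorptive epithelia, at chr3:28697903-28731359. Its counts were 0, 2 and 3 with Cd44 and 29, 1 and 3102 without. In CPM the Cd44-/- tumors stood at 1.15, 0.033 and 162.3, and No364 alone held nearly all Slc2a2 RNA. The Cd44-/- mean of 54.5 ± 93.4 CPM (SD, n = 3) therefore describes 1 tumor. Slc2a2 followed Mpc1, a subunit of the mitochondrial pyruvate carrier (r = 0.976), and Alb, the albumin gene (r = 0.966), with No364 as the 1 high point. Alb reached 60281 CPM in No364, the tumor with 141945 CPM of hepatocyte markers.

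Per kilobase of merged exons, Slc2a2 made up 0%, 0.137% and 0.222% of the summed level of Slc2a1 and Slc2a2 in No244, No316 and No368. Without Cd44 the share was 3.62% for No203, 0.0163% for No279 and 79.6% for No364. The 3.62% in No203 rests on 29 counts. Its hepatocyte markers, at 192.2 CPM, were the highest after those of No364, against 81.1 to 133.9 CPM in the other 4 tumors, and their part in the share was not tested.

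Hexokinases phosphorylate glucose once it has entered the cell. Hk1, the broadly expressed form at chr10:62268855-62379908, was at 36.5, 89.8 and 88.5 CPM in Cd44+/+ and 41.4, 120.0 and 10.4 CPM in Cd44-/-. The highest and the lowest level were both in Cd44-/- tumors and differed 11.5-fold, and the means of 62.8 ± 37.3 (SD, n = 2) and 57.3 ± 56.5 CPM (SD, n = 3) lay within the spread of each other, with a log2 fold change of -0.32 ± 0.84 (SE) and an adjusted p of 0.900. Leaving out No279 gave -1.47 and leaving out No364 gave 0.18. Hk1 followed Lox, the collagen cross-linking lysyl oxidase (r = 0.982).

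Hk2, the inducible hexokinase of muscle and many tumors at chr6:82725025-82774454, had 21.4, 68.3 and 65.9 CPM when Cd44 was present. Cd44-/- tumors had 34.3, 41.2 and 9.32 CPM of it, below both No316 and No368 in all 3 but not below No244 in 2 of them. The means were 44.3 ± 32.3 CPM (SD, n = 2) and 28.3 ± 16.8 CPM (SD, n = 3), with a log2 fold change of -0.88 ± 0.67 (SE) and an adjusted p of 0.625. Leaving out each tumor in turn kept it below 0, between -1.25 and -0.46. Hk2 followed P4ha1, a prolyl hydroxylase of collagen and a HIF target (r = 0.989).

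The share of Hk2 in the per-length level of both hexokinases was 45.6%, 52.1% and 51.5% with Cd44 and 54.2%, 32.9% and 56.1% without it. The difference between the means, 48.7% ± 4.37 (SD, n = 2) with and 47.7% ± 12.9 (SD, n = 3) without Cd44, was within the spread. No279 stood apart with the lowest share. Taking the longest transcript in place of merged exons as the length moved the shares to 31.3% to 37.1% in Cd44+/+ and 21.0% to 41.0% in Cd44-/-, so which hexokinase is the more abundant depends on the length chosen.

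**Figure D3:**
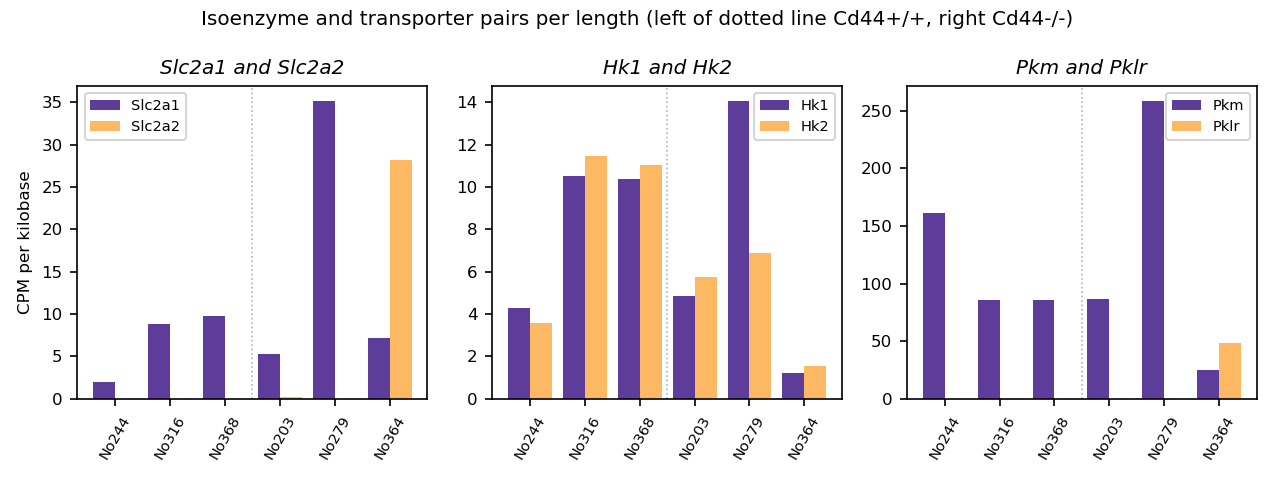
Level per kilobase of merged exons (CPM per kilobase, linear axis from 0) of each gene in the pairs Slc2a1 and Slc2a2, Hk1 and Hk2, and Pkm and Pklr, as bars for each tumor. In No364 Slc2a2 and Pklr exceed their partners, with shares of 79.6% and 66.0%, and in No279 Slc2a1 and Pkm stand highest.

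Pfkfb3 encodes the bifunctional enzyme whose high kinase activity raises fructose 2,6-bisphosphate and so speeds phosphofructokinase, at chr2:11471433-11554077. It was at 46.1, 46.6 and 49.9 CPM in Cd44+/+ and 11.1, 39.4 and 44.5 CPM in Cd44-/-. It was the 1 gene of the 7 tested whose genotypes did not overlap, a state shared by 19.1% of all genes tested (9.57% lower and 9.49% higher in Cd44-/-), and the margin between 46.1 and 44.5 CPM was small. The means were 47.2 ± 1.52 CPM (SD, n = 2) and 31.7 ± 18.0 CPM (SD, n = 3), with a log2 fold change of -0.59 ± 0.53 (SE) and an adjusted p of 0.676. Without No203, the lowest tumor, it was -0.21. Pfkfb3 followed Tpi1, the triosephosphate isomerase gene (r = 0.975).

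Pkm, the pyruvate kinase gene of muscle, brain and most tumors at chr9:59656368-59679375, was among the most abundant of the 9. It was at 806.4, 430.9 and 427.7 CPM in Cd44+/+ and 432.7, 1293 and 124.5 CPM in Cd44-/-. The highest and lowest tumor, No279 and No364, both lacked Cd44 and differed 10.4-fold, and the highest Cd44+/+ level was in No244, the tumor with 20078 CPM of muscle markers. The means of 617.8 ± 266.7 (SD, n = 2) and 616.7 ± 605.6 CPM (SD, n = 3) were nearly equal, with a log2 fold change of 0.15 ± 0.87 (SE) and an adjusted p of 0.956. It ranged from -0.99 without No279 to 0.65 without No364. Counts per gene do not separate the M1 and M2 splice forms of Pkm, and exons of Gm49759 overlap it on the same strand. Pkm followed Slc2a3, the gene for GLUT3 (r = 0.987).

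Pklr encodes the pyruvate kinase of liver and red cells, at chr3:89136142-89146784. With Cd44 it had 1, 1 and 2 counts, and without Cd44 it had 7, 2 and 2989. Only No364, at 156.4 CPM, stood clear of the detection limit by a wide margin, and No203 was at 0.278 CPM. Pklr followed Serpina1a, an alpha-1 antitrypsin gene of the liver, and Pck1, the cytosolic phosphoenolpyruvate carboxykinase of gluconeogenesis (r = 0.997 for both), again with No364 as the 1 high point. Erythroid markers summed to 1944 CPM in No364, where Pklr was at 156.4 CPM, and to 5370.0 CPM in No244, where Pklr was at 0.084 CPM, and their part in the level of Pklr was not tested.

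Per length, Pklr was 0.0161%, 0.0125% and 0.0303% of the sum of Pkm and Pklr in the Cd44+/+ tumors. It was 0.099% in No203, 0.00789% in No279 and 66.0% in No364, or 51.3% in No364 with the longest transcript as length. In No364 high Pklr went together with the lowest Pkm of the 6 tumors.

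Ldha, the lactate dehydrogenase subunit that favours lactate formation and a HIF-1 target, lies at chr7:46841475-46855627. It was at 560.1, 351.1 and 348.0 CPM in Cd44+/+ and 445.9, 632.1 and 1153 CPM in Cd44-/-. No279 and No364 were above every Cd44+/+ tumor and No203 was between them. The means were 454.8 ± 148.9 CPM (SD, n = 2) and 743.8 ± 366.7 CPM (SD, n = 3), with a log2 fold change of 0.83 ± 0.58 (SE) and an adjusted p of 0.594. It stayed above 0 when any 1 tumor was left out, from 0.37 (without No364) to 1.08. Ldha followed Pcx, the pyruvate carboxylase gene (r = 0.997).

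Pdk1 encodes a kinase that switches off pyruvate dehydrogenase and is induced by HIF-1, at chr2:71873224-71903858. Its levels in the Cd44+/+ tumors were nearly equal, at 36.7, 36.4 and 36.6 CPM, a mean of 36.6 ± 0.129 CPM (SD, n = 2). Without Cd44 it was at 25.3, 97.4 and 53.8 CPM, so the Cd44-/- tumors lay on both sides, with a mean of 58.8 ± 36.3 CPM (SD, n = 3). The log2 fold change was 0.68 ± 0.50 (SE) with an adjusted p of 0.613, and 0.11 to 1.01 when 1 tumor was left out. Without No203, the lowest tumor, the unadjusted p was 0.0368 and the adjusted p 0.258. Pdk1 followed Gpi1, glucose phosphate isomerase (r = 0.994), and Egln3, an oxygen sensing prolyl hydroxylase that is itself a HIF target (r = 0.980).

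**Figure D4:**
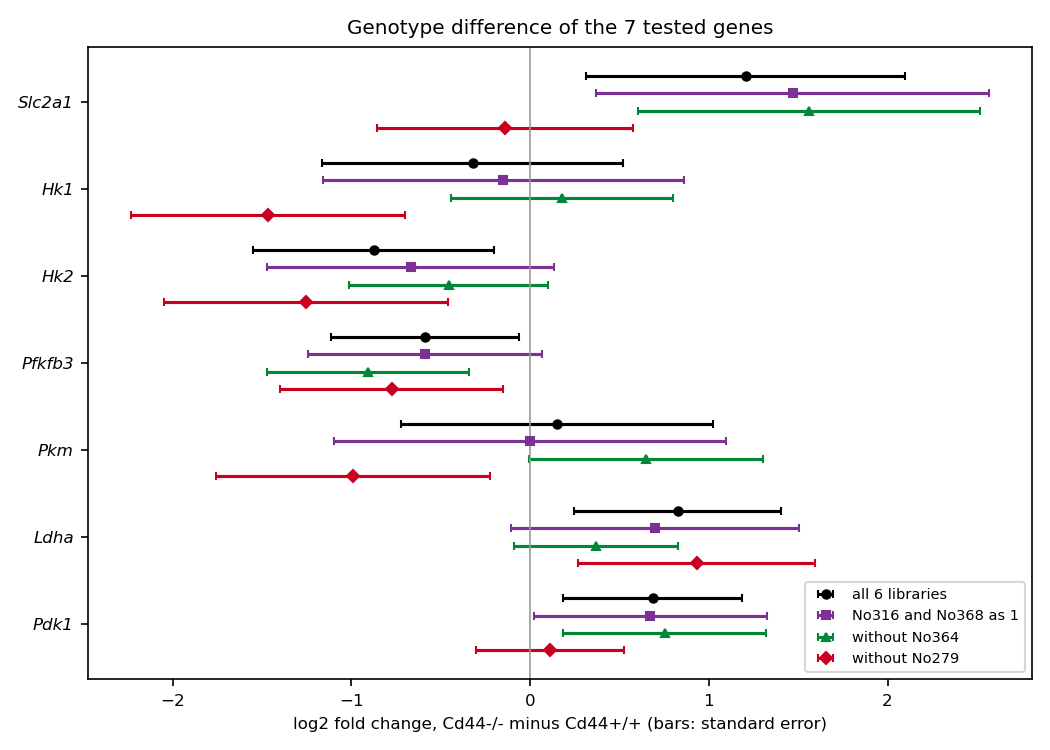
Log2 fold change (Cd44-/- over Cd44+/+) of the 7 genes tested, with SE as bars, from edgeR on all 6 libraries, with No316 and No368 as 1 sample, without No364 and without No279. No gene passed the adjusted threshold, and the point for Pkm lies between -0.99 without No279 and 0.65 without No364.

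Compared per kilobase of merged exons, Ldha and Pkm stood far above the others in 5 of the 6 tumors. The Ldha level was 137.4 ± 45.0 CPM per kilobase in Cd44+/+ and that of Pkm 123.5 ± 53.3 (SD, n = 2), and these neighbours did not differ beyond their spread. They were followed by Hk2 at 7.42 ± 5.41, Hk1 at 7.36 ± 4.37, Pfkfb3 at 6.24 ± 0.201, Slc2a1 at 5.67 ± 5.13 and Pdk1 at 4.71 ± 0.017 CPM per kilobase, of which no gene differed from its neighbour beyond the spread. The levels of Pklr (0.022 ± 0.005) and Slc2a2 (0.008 ± 0.012) were at the detection limit. In Cd44-/- tumors the order was Ldha at 224.7 ± 110.8, Pkm at 123.3 ± 121.1, Pklr at 16.1 ± 27.9, Slc2a1 at 15.9 ± 16.7, Slc2a2 at 9.47 ± 16.2, Pdk1 at 7.56 ± 4.67, Hk1 at 6.71 ± 6.62, Hk2 at 4.73 ± 2.81 and Pfkfb3 at 4.19 ± 2.38 CPM per kilobase (SD, n = 3), again with no neighbours apart beyond the spread. No364 broke the pattern: there Ldha at 348.4 CPM per kilobase was followed by Pklr at 48.3, Slc2a2 at 28.2 and Pkm at 24.9. In No279 Pkm at 258.5 exceeded Ldha at 191.0 CPM per kilobase. The order depended on the length chosen. With the longest transcript, No364 had Pklr at 53.9, Pkm at 51.2 and Slc2a2 at 29.2 CPM per kilobase. With that length Pkm also exceeded Ldha in No244 (331.6 against 308.6), and Hk1 was above Hk2 in each tumor.

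The other genes of the pathway were followed through 91 genes in 8 lists, of which 86 passed the filter and 0 were called by edgeR. An unadjusted p under 0.05 was found for 14 of the 86 (16.3%), against 10.7% of all genes tested. Of the 86, 10 were higher (6.44% of all genes were) and 4 lower (4.31%) in Cd44-/-. Without No364 it was 11 of 86 (12.8%), against 8.82%, and with No316 and No368 summed as 1 sample 4 of 87 (4.60%), against 4.26%. Eno2, Car9, Pgf and Mlxip were among those found without No364 and not among the 14. The genotypes did not overlap for 16 of the 86 (18.6%), against 19.1% of all genes. The shares at an unadjusted p under 0.05 were above the background with all libraries and without No364 and near it with No316 and No368 summed, and no list was tested as a set. With these 2 libraries summed, Slc16a7, Pfkfb4 and Pck2 of the 14 still had an unadjusted p under 0.05, while the remaining 11 had 0.053 (Pdk4) to 0.134 (Slc2a8). Each gene named below with an unadjusted p under 0.05 over all 6 libraries had an adjusted p of 0.452 in that fit.

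**Figure D5:**
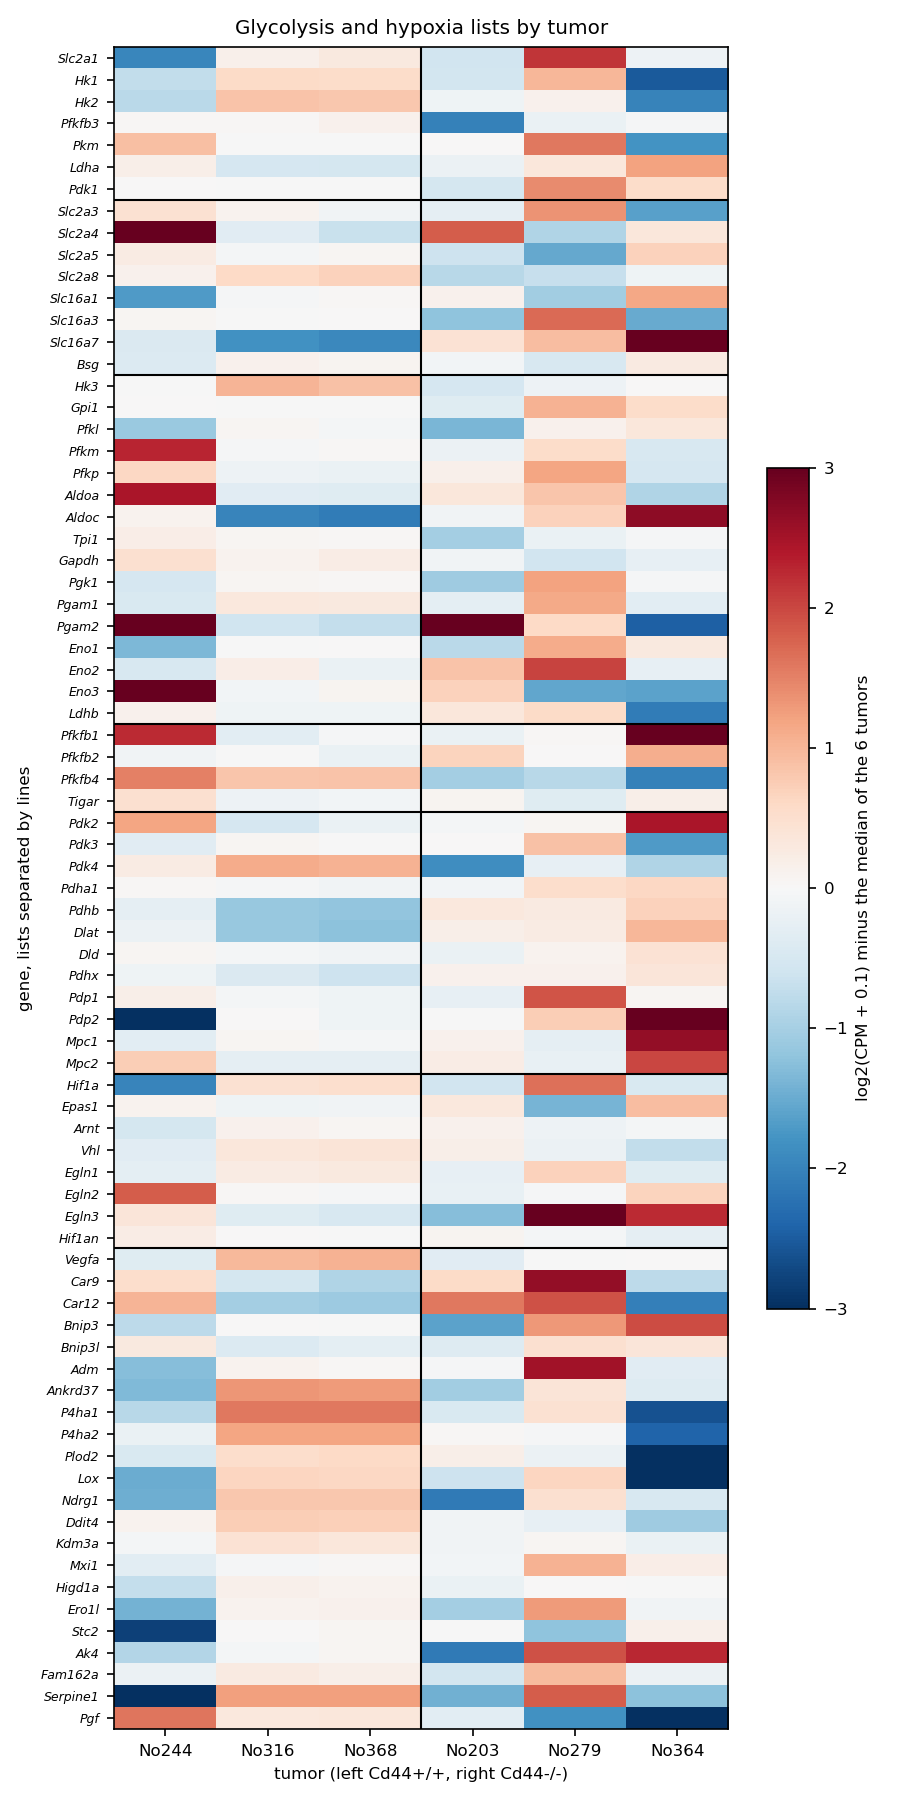
Log2(CPM + 0.1) of tested genes minus the median of each over the 6 tumors (colour, limited to -3 and 3), for 7 of the 9 genes and for 6 of the pathway lists, separated by lines, with Cd44+/+ tumors on the left and Cd44-/- on the right. No316 and No368 look alike, No279 holds the highest level of many genes, Slc2a1, Hif1a and Car9 among them, and Slc16a7 is high in No364.

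Of the 8 genes for glucose and lactate transport, 1 was higher and 1 lower at an unadjusted p under 0.05, and the median log2 fold change was 0.06. Slc16a7, the monocarboxylate transporter MCT2, was at 8.99, 3.37 and 3.06 CPM in Cd44+/+ and 16.2, 22.9 and 105.7 CPM in Cd44-/-. No Cd44-/- tumor overlapped the Cd44+/+ range, the log2 fold change was 3.24 ± 0.89 (SE, unadjusted p = 0.0091), and it was 1.94 without No364. DESeq2 called it at an adjusted p of 0.0271, which became 0.220 with No316 and No368 summed. Slc2a8, the intracellular transporter GLUT8, was at 15.4, 21.4 and 22.6 CPM against 7.85, 8.68 and 12.9 CPM, lower in each Cd44-/- tumor, with a log2 fold change of -1.02 ± 0.40 (SE, unadjusted p = 0.0385). Slc2a4, the insulin responsive GLUT4 of muscle and fat, was at 31.1 CPM in No244 and at no more than 4.20 CPM in the others.

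Of 19 further glycolytic enzyme genes 17 were tested, and 2 were higher at an unadjusted p under 0.05. Aldoc, an aldolase and 1 of these 2, was at 7.39, 1.67 and 1.51 CPM in Cd44+/+ and 6.30, 11.0 and 44.5 CPM in Cd44-/-, with 2.56 on the log2 scale and 1.32 without No364. Eno3, the muscle enolase, was at 671.4 CPM in No244 and 9.79 to 48.5 CPM elsewhere (log2 fold change -3.42 ± 1.47, SE, unadjusted p = 0.054). Tpi1 and Gapdh had no overlap and were lower in Cd44-/-, at 411.3 to 460.7 against 198.1 to 389.2 CPM for Tpi1 and at 109.0 to 141.7 against 67.6 to 93.2 CPM for Gapdh, with log2 fold changes of -0.46 and -0.59 that did not pass the test. Highest in No279 were 7 of the 17 and highest in No244 were 6, against 21.5% and 22.9% of all genes tested.

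Among the 4 genes besides Pfkfb3 that make or remove fructose 2,6-bisphosphate, Pfkfb4 differed most. It was at 64.3, 39.7 and 40.7 CPM in Cd44+/+ and 11.0, 12.5 and 5.39 CPM in Cd44-/-, so each Cd44-/- tumor was below each Cd44+/+ tumor by a wide margin. The log2 fold change was -2.32 ± 0.45 (SE, unadjusted p = 0.00148), and -2.03 without No364. DESeq2 called it at an adjusted p of 0.00383, or 0.0837 with No316 and No368 summed. Pfkfb2, the heart form, had no overlap in the opposite direction, at 18.5 to 21.0 against 21.4 to 45.2 CPM (log2 fold change 0.76). Pfkfb1, the liver and muscle form, was at 56.9 CPM in No364, 13.0 CPM in No244 and 2.16 to 2.74 CPM in the others.

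The 12 genes for pyruvate entry and the pyruvate dehydrogenase complex with its other kinases had a median log2 fold change of 0.88, and 0.40 without No364. With all libraries 11 were above 0, where 55.1% of all genes tested were above 0. Without No364, Pdk2 (-0.35) and Mpc2 (-0.12) were below 0 beside Pdk4 (-1.68), and Dld (0.001) and Mpc1 (0.04) were near 0. Pdhb, the beta subunit of the first enzyme, was at 66.5, 36.7 and 35.4 CPM in Cd44+/+ and 100.4, 97.8 and 129.3 CPM in Cd44-/- (log2 fold change 1.24 ± 0.39, SE, unadjusted p = 0.0156). Dlat, the acetyl transferase core, was at 36.6, 18.8 and 17.7 against 47.5, 49.3 and 83.0 CPM (1.30 ± 0.44, unadjusted p = 0.0216). Without No364 the log2 fold change of Dlat was 0.999 (unadjusted p = 0.0538). Pdhx, which tethers the third enzyme, was at 14.6 to 20.5 against 24.5 to 28.9 CPM. Pdk4, a kinase of the complex that rises in fasting, went the other way, at 153.1, 278.4 and 267.7 against 35.3, 109.3 and 69.3 CPM (-1.71 ± 0.54, unadjusted p = 0.0165). With No316 and No368 summed as 1 sample, the unadjusted p was 0.0827 for Pdhb, 0.0869 for Dlat and 0.053 for Pdk4. Levels of 9 of the 12 were highest in No364, against 25.0% of all genes tested.

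The gluconeogenesis list was dominated by No364. Of 6 genes tested 3 were higher at an unadjusted p under 0.05 and 1 was lower, and the median log2 fold change of 3.22 became -0.17 without No364. Pck1 was at 2059 CPM in No364 and at most 1.98 CPM elsewhere (log2 fold change 9.53, and 0.78 without No364). Fbp1, fructose bisphosphatase of the liver, was at 316.4 CPM in No364 and at most 1.29 CPM elsewhere (7.10, and -0.06 without it). Pcx had 16.7, 3.13 and 2.60 CPM with Cd44 and 6.50, 24.6 and 425.0 CPM without (4.35, and 1.08 without No364). Pck2, the mitochondrial form, was lower in each Cd44-/- tumor, at 56.9, 45.0 and 23.6 CPM against 231.2, 72.8 and 71.5 CPM (-1.58 ± 0.62, SE, unadjusted p = 0.0389). Without No364 it was -1.29 (unadjusted p = 0.0976). G6pc, glucose 6-phosphatase, failed the filter with 1017 CPM in No364 and at most 0.294 CPM elsewhere.

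Of the 8 tested genes for HIF subunits and their oxygen sensors 1 had an unadjusted p under 0.05. It was Egln3, at 6.39, 3.86 and 3.53 CPM in Cd44+/+ and 1.98, 97.7 and 23.7 CPM in Cd44-/-, with overlapping genotypes and a log2 fold change of 3.17 ± 1.22 (SE, unadjusted p = 0.0367). Hif1a was at 16.6, 90.0 and 92.9 CPM against 44.4, 205.1 and 47.9 CPM, highest in No279 as Slc2a1 was (log2 fold change 0.58). Egln2 was at 119.7 CPM in No244 and 29.1 to 54.2 CPM elsewhere (-0.69).

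Among 22 further HIF target genes none had an unadjusted p under 0.05 in edgeR with all 6 libraries. Their log2 fold change was above 0 for 11 and below 0 for 11, with a median of -0.06. Without No364, Pgf and Car9 had an unadjusted p under 0.05, and neither had it with No316 and No368 summed. Pgf, placental growth factor, was at 206.3, 84.8 and 86.6 CPM in Cd44+/+ and 54.8, 19.2 and 1.46 CPM in Cd44-/-, with no overlap (-2.32 ± 1.12, SE). Ddit4, an inhibitor of mTORC1 signalling, had no overlap in the same direction, at 155.7 to 241.9 against 69.0 to 133.2 CPM (-0.97 ± 0.43). Ak4, a mitochondrial adenylate kinase, was at 8.62 CPM in No279 and 11.0 CPM in No364 and at most 2.31 CPM in the others (1.82). Car9, the carbonic anhydrase used as a hypoxia marker, was at 5.48 CPM in No279 and at most 1.23 CPM in the others (1.81). Of the 22, 8 were highest in No279, against 21.5% of all genes tested.

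Of 9 tested regulators of glycolysis 1 had an unadjusted p under 0.05. Mlx, the partner of the carbohydrate sensing factors, was at 15.0, 17.7 and 17.7 CPM in Cd44+/+ and 31.2, 28.3 and 48.3 CPM in Cd44-/-, with no overlap (log2 fold change 1.10 ± 0.34, SE, unadjusted p = 0.0165). Mlxip, which encodes the sensing partner MondoA, had no overlap in the opposite direction, at 62.6, 74.9 and 72.9 against 40.2, 42.3 and 13.0 CPM (-1.14 ± 0.49). Txnip, a target of MondoA that limits glucose uptake, was at 354.9 to 429.1 against 223.0 to 347.5 CPM (-0.41). Mlxipl, which encodes the liver sensor ChREBP that binds carbohydrate response elements, was at 159.5 CPM in No364 and at most 4.12 CPM elsewhere, and its log2 fold change of 5.10 became -1.54 without No364. Pklr, whose promoter holds the element shown above, was high in the same tumor, and its hepatocyte markers were at 141945 CPM.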

How the data were processed

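RNA of primary osteosarcomas, 3 samples per Cd44 genotype, had been sequenced (TruSeq stranded mRNA, single-end). The authors deposited raw counts per Ensembl gene, made by alignment to GRCm38 with HISAT2 2.0.2 and counting with featureCounts of Subread 2.0.0. How reads of several genes or of the opposite strand were counted is not given in the sources used here. No column of counts was left unused.

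Symbols, coordinates and lengths were taken from GENCODE M21 on GRCm38, and promoters from RefSeq. A length was found for 37607 of the 39179 identifiers. The paper names Ensembl GRCm38.84 for the alignment. The lengths and overlapping genes given here may therefore differ from those of the annotation used for counting. Levels are CPM with TMM factors. Genotypes were compared over all 6 libraries with edgeR 4.0.16 in R 4.3.3 (filterByExpr, quasi-likelihood F test, Benjamini-Hochberg adjustment over all genes tested, threshold 0.05). DESeq2 1.42.0, other filters and scalings, removal of each tumor and summing of No316 and No368 were alternatives. Each library carried another number in its title and was taken as another tumor, and the labels give no batch. For No316 and No368, which were close to proportional, this is uncertain.

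The 9 genes, the lists and the markers were chosen with earlier results of these data known. From each list, genes with an unadjusted p under 0.05 were named, or those with the largest log2 fold changes until 3 were reached, besides genes without overlap between genotypes, the genes most correlated with one of the 9 and genes failing the filter. Some genes of the lists count in the totals but are not reported here by name.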

Additional observations from a re-analysis of the deposited data

How the results depend on the processing

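Of 105 fold changes of the 7 tested genes under 15 alternative settings, 98 kept the direction and the side of the threshold and 7 reversed the sign, none of them past the threshold. No edgeR setting called any gene, so keeping the side of the threshold says little there. Pkm became -0.99 without No279 and -0.0010 without No368, -0.0014 with No316 and No368 summed and -0.016 in DESeq2 with these summed. Over the fits that left out 1 tumor each, Slc2a1 ranged from -0.14 (without No279) to 1.58, Hk1 from -1.47 (without No279) to 0.18 (without No364) and Pkm from -0.99 to 0.65. Hk1 was 0.35 when No364 was left out and No316 and No368 were summed. Another scaling or filter reversed none of the 7. The cause of these reversals was not tested.

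No setting of edgeR called a gene, and leaving out 1 tumor gave 0 calls each time. DESeq2 called 419 genes, and 146 with No316 and No368 summed, none of them among the 7 tested. It gave no p-value for Slc2a2 and Pklr, which it therefore could not call. The genes with an unadjusted p under 0.05 numbered 1810, and 1197 with library size alone, 761 with No316 and No368 summed, 639 when No364 was left out as well, and 763 (without No316) to 3085 (without No203) when 1 tumor was left out. The share of these that was higher in Cd44-/- was 59.9%, 68.3% with library size alone, 66.9% without the filter, 42.6% with No316 and No368 summed, 43.9% without No316 and 43.2% without No368. Of the 9 genes, 7 were tested in the main fit and 0 had an unadjusted p under 0.05. The number was 2 (Slc2a2 and Pklr) without the filter, against 2543 of all 25317 genes. It was 1 with No316 and No368 summed (Slc2a2), against 761 of 17844. When 1 tumor was left out it was 0 to 1. This was Pdk1 without No203 (against 3085 of 17574 genes) and Slc2a2 without No279 (1911 of 17502) or No368 (784 of 17693). In these fits Slc2a2 passed the filter only through No203 and No364, where it is high. The differences of Slc2a2 and Pklr rested on No364, at 3102 and 2989 counts. With the longest transcript as length, the mean Hk2 share was 34.1% in Cd44+/+ and 33.7% in Cd44-/-, and the Pklr share in Cd44+/+ was 0.0102%. The settings that combined summing with DESeq2 or with removal of No364 were chosen after the data had been seen. No paired analysis was possible because the genotypes share no replicate number. Depth limits Slc2a2 and Pklr, which were near or under 3 counts in several tumors.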
